A study of Mus musculus with 12 samples.

Results

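Cells buffer ATP with phosphocreatine, and skeletal muscle leans on this store more than most tissues. Creatine enters through the transporter Slc6a8, mitochondrial creatine kinase charges it with phosphate, and the cytosolic kinases use phosphocreatine to turn ADP back into ATP at the myofibrils. When ADP still builds up, adenylate kinase makes ATP and AMP from it, and AMP deaminase removes the AMP as IMP. Myoglobin, the oxygen store of muscle, stands beside this system on the supply side. Creatine kinase is also a classical readout of C2C12 differentiation, in which the muscle isoenzyme appears as myoblasts fuse.

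The messages of 9 genes of this system were followed, chosen by their symbols: the creatine kinases Ckm, Ckb, Ckmt1 and Ckmt2, the creatine transporter Slc6a8, the adenylate kinase Ak1, the AMP deaminases Ampd1 and Ampd3, and myoglobin (Mb). All 9 were found among the 56941 genes of the deposited tables, each in 1 row. Of these, 8 passed the filter on low counts and Ckmt1 did not.

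RNA came from 12 wells of C2C12, a mouse myoblast line that fuses into myotubes. In 6 wells the cells were of an optogenetic line with the genotype ChR2::tdTomato, a light-gated cation channel joined to a red fluorescent protein, here called ChR2; in the other 6 they were wild type. Both lines sat on a fibrin gel 1 mm thick (8 mg of fibrinogen per mL), with 2 days in growth medium and then 6 days in differentiation medium with horse serum, IGF-1 and aminocaproic acid, an inhibitor of fibrin breakdown. The labels mention no light stimulation, and they give neither the promoter of the transgene nor whether the line is 1 clone. Whether each well was its own culture is not stated, and the p-values therefore rest on well-to-well spread, which may be technical.

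Libraries held between 7388761 and 13628569 estimated counts, except wild-type well 2 with 1061068 and wild-type well 5 with 2809669. In those wells the 7SL RNA, which lacks a poly(A) tail, took 24.8% and 8.37% of the counts, against at most 0.0341% elsewhere. The protocol mentions ribosomal RNA depletion for low-input samples without naming them. The edgeR comparisons of the lines were therefore made with and without wild-type wells 2 and 5. Isoenzyme shares and ratios of genes are given over all 12 wells. Genes that ran like Ckm or Ckb were sought in the 10 libraries without those wells alone. Levels are given as CPM, counts scaled to the library size after TMM, and levels of different genes are compared as TPM, which are also scaled to transcript length. Myotube markers were abundant in both lines, with 11 markers together at 14561 to 18507 CPM in ChR2 and 13826 to 27386 CPM in wild-type wells.

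Of the 8 members tested, 4 fell in the ChR2 line: Ckb, Slc6a8, Ak1 and Ampd3 (adjusted p under 0.05 by edgeR, with Benjamini-Hochberg correction over 13168 genes). Across all genes tested, 28.1% were called, 14.1% as lower and 14% as higher. No member was called higher, by edgeR, by DESeq2 or by limma voom. By edgeR 0 members were higher even at an unadjusted p under 0.05, with Ckm close to it at 0.056. Unadjusted p-values of the other methods were not counted. The median log2 fold change of the 8 members, ChR2 over wild type, was -0.40, beside -0.020 over all genes tested. Without wild-type wells 2 and 5, Ckb, Slc6a8 and Ampd3 were called lower and Ak1 was not, where 16.3% of 13484 genes were called lower and 18.9% higher (either direction 35.2%). The members' median was then -0.27, beside -0.0014 over all genes.

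**Figure D1:**
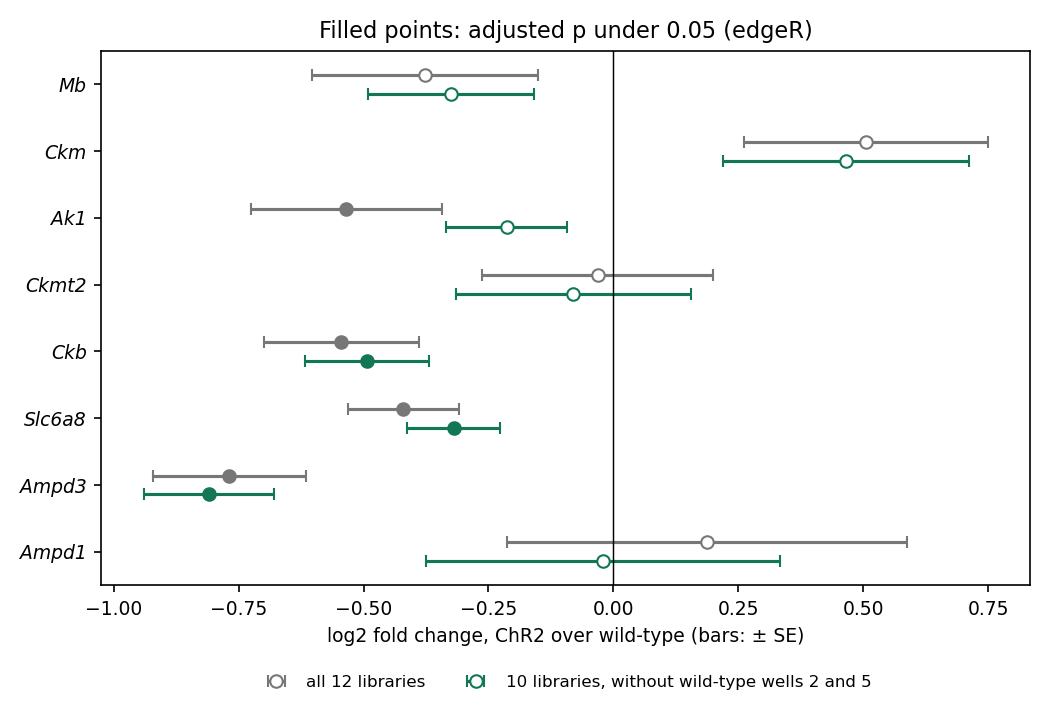
Log2 fold change of each tested member, ChR2 over wild type, with its SE, over all 12 libraries (grey) and over 10 libraries (green); filled points had an adjusted p under 0.05. Ampd3, Slc6a8 and Ckb lie left of 0 and are filled in both sets, Ak1 is filled in the 12 libraries alone, and Ckm lies right of 0 with open points at 0.50 and 0.47.

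Ckm (ENSMUSG00000030399), the muscle creatine kinase, which binds the M-line of the sarcomere, was the most abundant of the 4 kinases in each well. The lowest, median and highest ChR2 wells held 438, 658 and 930.1 CPM, against 266, 504 and 668 CPM in the wild type. The wells of the lines overlapped: wild-type wells 2, 3, 4 and 6 reached the range of the ChR2 wells, and wild-type wells 1 and 5 lay below all of them. The mean CPM was 678 ± 187 for ChR2 and 478 ± 167 for the wild type (SD, n = 6 wells each). The log2 fold change was 0.50 (SE 0.24, adjusted p = 0.135, edgeR) and 0.47 without wild-type wells 2 and 5 (SE 0.25, adjusted p = 0.163), so a difference was not shown.

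Ckb (ENSMUSG00000001270), the brain-type kinase, which undifferentiated myoblasts and many other tissues make, was lower in the ChR2 line. Its lowest, median and highest levels were 62.5, 64.8 and 77.2 CPM in ChR2 and 70.1, 95.8 and 139 CPM in wild-type wells. The ChR2 wells lay close together and the wild-type wells were spread out, with wells 1 and 5, at 70.1 and 73.9 CPM, inside the ChR2 range. Ckb fell to 68.6% of the wild-type level (log2 fold change -0.54, SE 0.16, adjusted p = 0.0178, edgeR). Without wild-type wells 2 and 5 the log2 fold change was -0.49 (SE 0.12, adjusted p = 0.00758). Its estimated counts lay up to 0.459 from a whole number, whereas those of the other members lay within 0.002, so some Ckb reads had been divided between Ckb and other transcripts by the authors' estimate.

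Ckmt2 (ENSMUSG00000021622), the sarcomeric mitochondrial kinase of the intermembrane space, spanned 52.8 to 102 CPM in ChR2, with a median of 84.2 CPM. In wild-type wells it spanned 45.7 to 118 CPM, with a median of 86.4 CPM. The ranges lay on top of each other, and the log2 fold change was -0.031 (SE 0.23, adjusted p = 0.941, edgeR). Without wild-type wells 2 and 5 it was -0.080 (SE 0.23, adjusted p = 0.824, edgeR). Ckmt1, the ubiquitous mitochondrial kinase best known from brain and kidney, reached at most 1 count in any ChR2 well and 2 counts in any wild-type well. This is under the floor of 3 counts per library, so no fold change is given. At the depth of the single libraries that floor stands at 0.22 to 3.93 CPM.

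**Figure D2:**
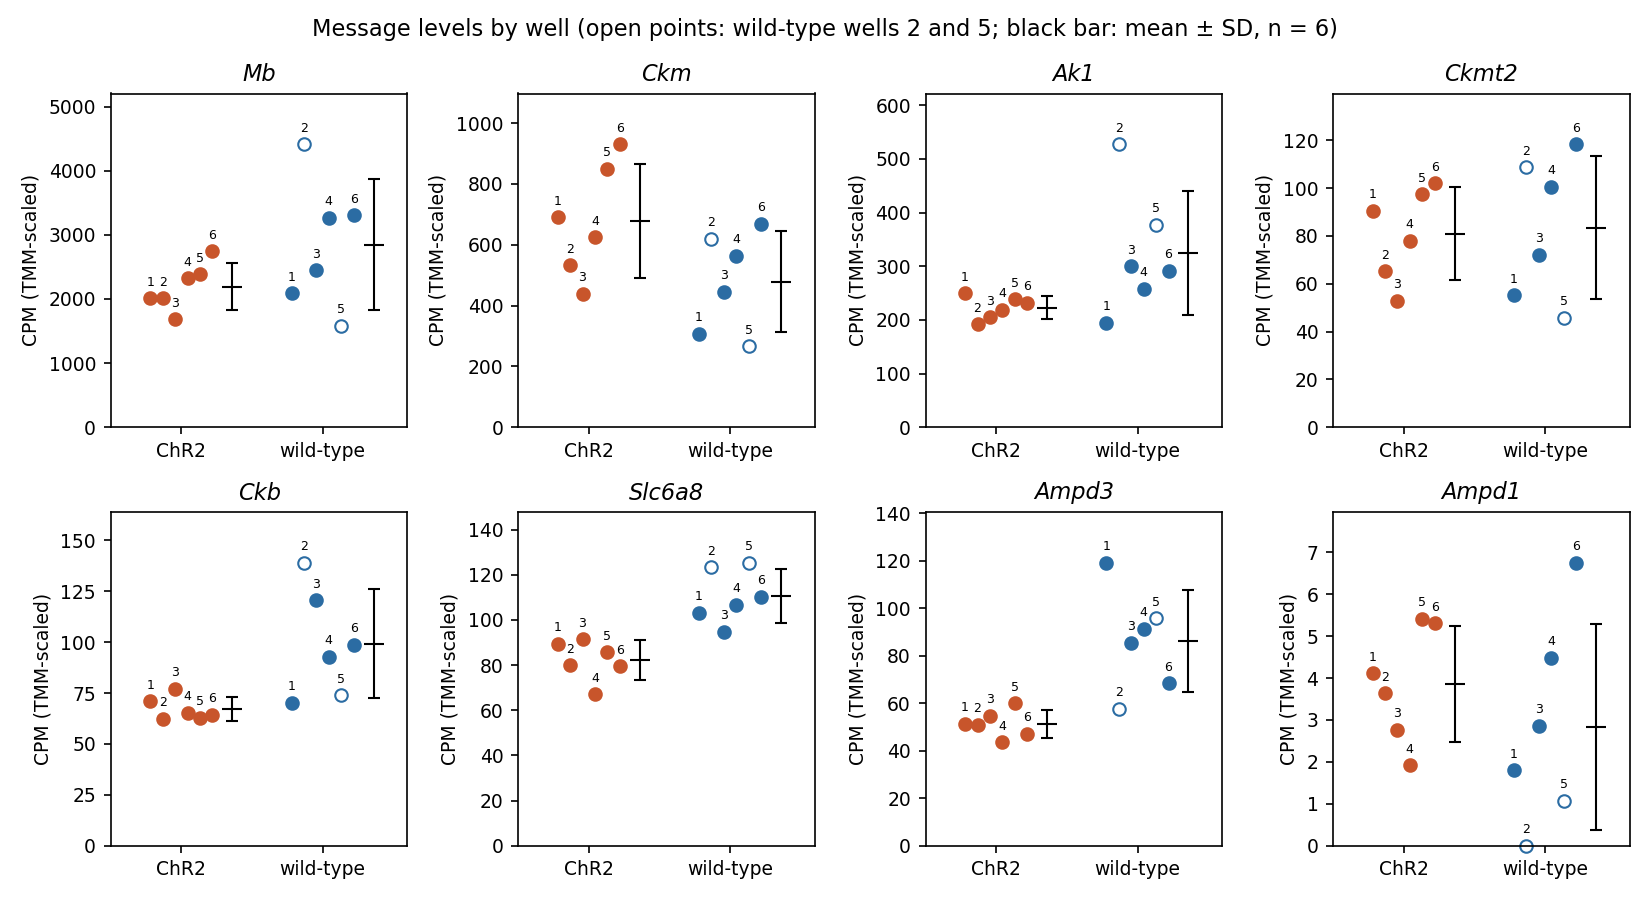
Level of each of the 8 detected members in each well, in CPM on TMM-scaled library sizes on linear axes from 0; numbers are well numbers, open points are wild-type wells 2 and 5, and black bars give the mean ± SD of 6 wells. For Slc6a8 every ChR2 point lies below every wild-type point. For Ckb and Ampd3 the ChR2 points form a narrow band, most of it below the lowest wild-type point and the rest above it.

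Per length, Ckm made up 84.3% ± 2.56 of the summed creatine kinase TPM in ChR2 wells and 75.4% ± 3.42 in wild-type wells (SD, n = 6 each). The ranges met without crossing, 80.2% to 87.3% in ChR2 and 71.5% to 80.2% in wild type. Ckb took 7.47% ± 2.49 in ChR2 and 14.2% ± 3.95 in wild type, with overlap, since ChR2 well 3 reached 11.8% and wild-type well 6 stood at 9.17%. Ckmt2 took between 7.70% and 8.61% in ChR2 wells and between 9.39% and 11.2% in wild-type wells, with no overlap. The shares of a well are parts of a whole, so the lower Ckmt2 share is not a change apart from the higher Ckm share. The level of Ckmt2 itself was not called. These shares are a description of chosen genes and were not tested.

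**Figure D3:**
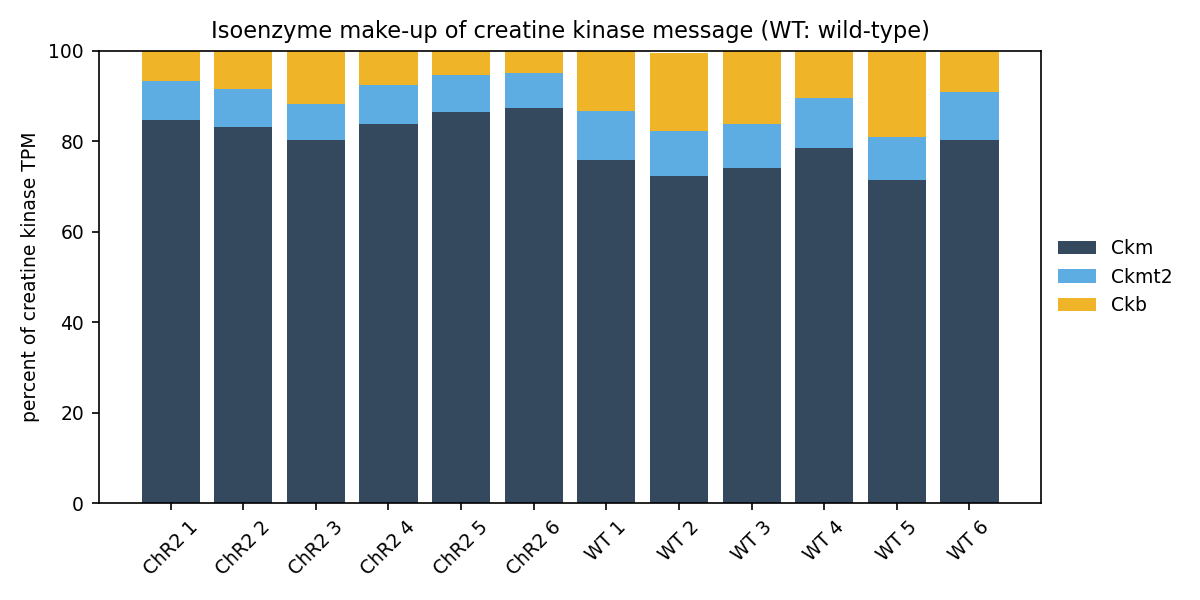
Percent of the summed TPM of Ckm, Ckb, Ckmt1 and Ckmt2 in each well, as stacked bars; Ckmt1 is not drawn and reached 0.405% in wild-type well 2. The dark Ckm part is taller in the ChR2 bars (mean 84.3%) than in the wild-type bars (mean 75.4%, WT), and the yellow Ckb part is taller in wild type.

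The ratio of Ckm to Ckmt2 was steadier than either gene. In CPM, Ckm varied 2.12-fold and Ckmt2 1.93-fold between the ChR2 wells, yet their TPM ratio stayed between 9.83 and 11.3. In the wild-type wells Ckm varied 2.51-fold and Ckmt2 2.59-fold in CPM, and the TPM ratio stayed between 6.99 and 7.80. Wild-type wells 2 and 5, at 7.19 and 7.62, lay within the range of the other wild-type wells, although Ckmt2 rested on only 83 and 128 counts there. The ratio in each ChR2 well was thus above that in each wild-type well, and the same held for the ratio of CPM, at 7.63 to 9.11 in ChR2 and 5.55 to 6.17 in wild type. A ratio within a library does not depend on how libraries are scaled.

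The ratio of Ckm to Mb also separated the lines, at 0.196 to 0.280 in ChR2 and 0.111 to 0.171 in wild type. Of the 21 pairs of members with a value in each well, these 2 were the ones whose ratios did not overlap between the lines, and both contain Ckm. Among 12089 genes with a value in each well, the ratio to Ckm separated the lines for 2.89%, while it did so for 2 of 6 members. The pairs were singled out after their values were seen, so no test is given, and a ratio does not show which of its genes changed. The ratio of Ckmt2 to Mb overlapped between the lines, at 0.0196 to 0.0285 in ChR2 and 0.0154 to 0.0227 in wild type.

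**Figure D4:**
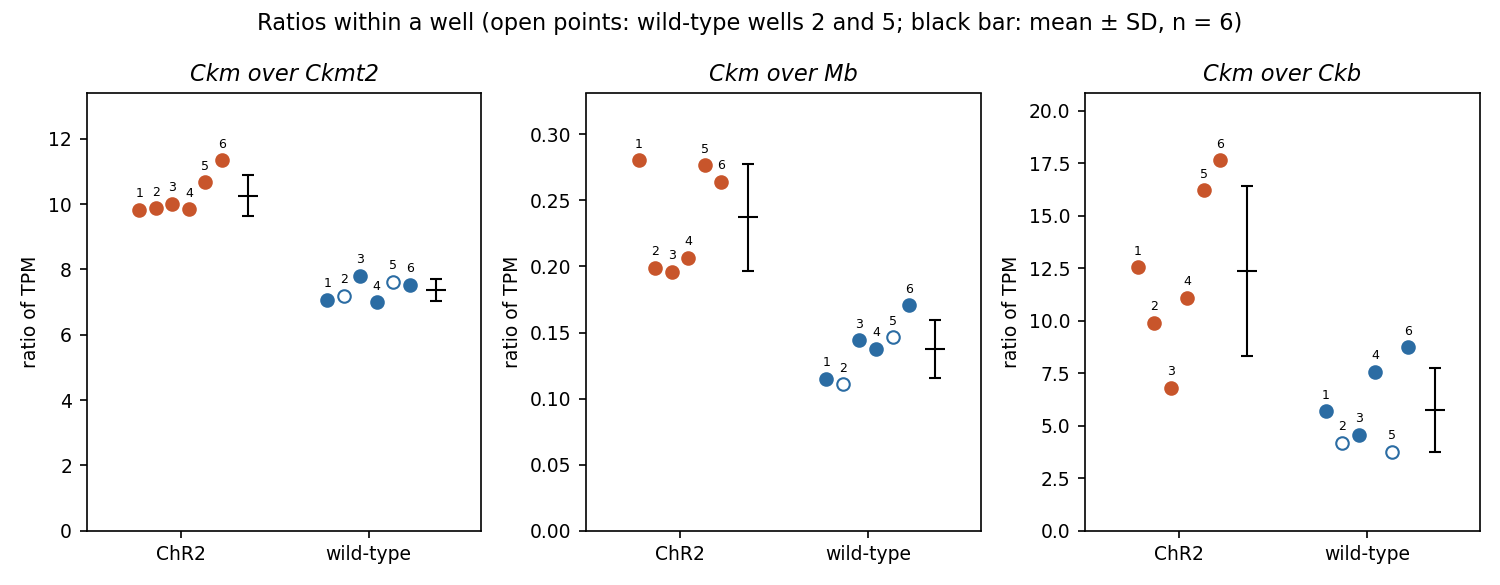
Ratio of TPM within each well for Ckm over Ckmt2, Ckm over Mb and Ckm over Ckb; open points are wild-type wells 2 and 5, and black bars give the mean ± SD of 6 wells. For Ckm over Ckmt2 the ChR2 wells lie between 9.83 and 11.3 and the wild-type wells between 6.99 and 7.80, and for Ckm over Ckb the lines overlap.

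The 250 bases before the annotated start of Ckm, Ckmt2 and Ckb are shown because the first pair of genes kept a near-constant ratio within each line while Ckb fell. They are RefSeq promoter windows of build GRCm38.p6, in the direction of transcription: chr7:19410844-19411093 on the plus strand for Ckm, chr13:91876886-91877135 on the minus strand for Ckmt2 and chr12:111672339-111672588 on the minus strand for Ckb. Capitals mark the E-box CANNTG, the motif that myogenic helix-loop-helix factors bind.
Ckm: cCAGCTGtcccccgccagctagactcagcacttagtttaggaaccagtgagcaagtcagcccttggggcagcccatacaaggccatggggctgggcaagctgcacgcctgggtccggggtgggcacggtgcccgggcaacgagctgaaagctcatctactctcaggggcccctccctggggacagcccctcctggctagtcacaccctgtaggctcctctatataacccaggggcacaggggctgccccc
Ckmt2: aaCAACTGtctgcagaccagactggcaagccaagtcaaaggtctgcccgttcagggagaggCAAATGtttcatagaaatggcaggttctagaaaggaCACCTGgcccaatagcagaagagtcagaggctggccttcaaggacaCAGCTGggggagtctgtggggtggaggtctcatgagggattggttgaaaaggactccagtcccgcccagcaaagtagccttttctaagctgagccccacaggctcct
Ckb: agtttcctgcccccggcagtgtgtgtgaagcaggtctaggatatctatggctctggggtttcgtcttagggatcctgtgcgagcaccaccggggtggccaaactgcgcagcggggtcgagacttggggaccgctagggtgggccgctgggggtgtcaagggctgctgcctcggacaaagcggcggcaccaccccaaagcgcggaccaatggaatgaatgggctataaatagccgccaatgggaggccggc
The Ckmt2 window held 4 E-boxes, the Ckm window 1 and the Ckb window 0. Of 32817 such windows in the mouse, 66.2% hold at least 1, and the motif reads alike on both strands. Ampd3 and Ak1, which were also called lower over 12 libraries, had several windows each. Those of Ampd3 held 1, 3 and 0 E-boxes, and those of Ak1 held 3, 1, 2 and 1. The windows of Mb, which was not called, held 3, 2 and 2, and those of Ckmt1 held 0 each. Slc6a8 and Ampd1 had no window. A match to the MEF2 consensus, searched on both strands, was found in the Ckb window, where it overlaps the TATAAA box, and in 2.92% of all windows. CCAAT, searched on both strands, occurred 2 times each in the Ckb and Ckmt2 windows and in 33.8% of all windows. These matches describe the letters of the windows and say nothing of binding, and distant enhancers such as the known one of Ckm lie outside them.

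Slc6a8 (ENSMUSG00000019558), the sodium- and chloride-dependent transporter that brings creatine into the cell, was the member that separated the lines in all 12 wells. Its lowest, median and highest ChR2 wells were at 67.0, 82.8 and 91.4 CPM, and the wild-type wells at 94.7, 108 and 125 CPM. No wells overlapped, which held for 6.52% of all genes tested with ChR2 lower and for 15.1% in either direction. Slc6a8 fell to 74.7% of the wild-type level (log2 fold change -0.42, SE 0.11, adjusted p = 0.0116, edgeR), and to 80.1% without wild-type wells 2 and 5, the wells with the highest levels (log2 fold change -0.32, SE 0.093, adjusted p = 0.0161).

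Ak1 (ENSMUSG00000026817), the cytosolic adenylate kinase of muscle, ran from 192 to 249 CPM in ChR2 wells with a median of 226 CPM. In the wild type it ran from 195 to 527 CPM with a median of 296 CPM. Wild-type wells 2 and 5 were the highest, at 527 and 377 CPM, while wild-type well 1 lay inside the ChR2 range. The log2 fold change was -0.53 over 12 libraries (SE 0.19, adjusted p = 0.0485, edgeR) and -0.21 without wells 2 and 5 (SE 0.12, adjusted p = 0.185). The call was lost when any single one of the 6 ChR2 wells, or of wild-type wells 2, 3 and 5, was left out, with adjusted p up to 0.0991.

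Of the AMP deaminases, Ampd3 was the more abundant. Ampd3 (ENSMUSG00000005686), known as the erythrocyte isoform, ran from 43.5 to 60.0 CPM in ChR2 with a median of 51.1 CPM, and from 57.7 to 119 CPM in the wild type with a median of 88.4 CPM. Wild-type well 2, where Ampd3 rested on 44 counts, was the one wild-type well inside the ChR2 range. Ampd3 fell to 58.7% of the wild-type level (log2 fold change -0.77, SE 0.15, adjusted p = 0.00227, edgeR), and the log2 fold change was -0.81 without wild-type wells 2 and 5 (SE 0.13, adjusted p = 0.000453). In those 10 libraries Ampd3 and Slc6a8 did not overlap between the lines, against 11.2% of 13484 genes with ChR2 lower and 25% in either direction.

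Ampd1 (ENSMUSG00000070385), the isoform of adult skeletal muscle, was scarce, at 1.92 to 5.42 CPM in ChR2 wells (median 3.88) and 0 to 6.75 CPM in wild-type wells (median 2.33). Wild-type well 2 held 0 counts, which at its depth allows up to 3.93 CPM, and well 5 held 3. The lines overlapped, and the log2 fold change was 0.19 (SE 0.40, adjusted p = 0.767, edgeR).

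Mb (ENSMUSG00000018893), myoglobin, was by far the most abundant member. Its lowest, median and highest levels were 1685, 2167 and 2744 CPM in ChR2 and 1579, 2857 and 4412 CPM in wild-type wells. The wild-type extremes were wells 5 and 2, and the other 4 wild-type wells lay between 2087 and 3308 CPM, overlapping the ChR2 wells. The log2 fold change was -0.38 (SE 0.23, adjusted p = 0.227, edgeR) and -0.32 without wild-type wells 2 and 5 (SE 0.17, adjusted p = 0.142). On log2(TPM + 1) of the same 10 libraries, an alternative chosen after seeing the data, limma did call it lower (-0.40, adjusted p = 0.0125). Over all 12 libraries that measure gave 0.15 (adjusted p = 0.871, limma).

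In TPM, Mb led in both lines with 3388 ± 356 in ChR2 wells (SD, n = 6) and 4509 ± 714 in wild-type wells 1, 3, 4 and 6 (SD, n = 4), and ranked between 13 and 43 among all genes of those libraries. Ckm followed with 813 ± 208 and 648 ± 180 TPM, and Ak1 with 182 ± 21.8 and 228 ± 34.3 TPM, with no overlap between these 3 within a line. Ckmt2 (78.7 ± 17.3 and 88.1 ± 23.9 TPM) and Ckb (67.7 ± 10.3 and 99.8 ± 25.2 TPM) overlapped in each line and could not be ordered. Slc6a8 stood at 41.0 ± 8.79 and 55.4 ± 3.63 TPM, and Ampd3 spanned 16.5 to 26.3 and 30.5 to 52.7 TPM. Their ranges touched in each line, at 26.0 and 26.3 TPM in ChR2 and at 52.2 and 52.7 TPM in wild type, and in the wild type Slc6a8 also overlapped Ckmt2. Ampd1 closed the order of the detected members with 2.60 ± 0.997 and 2.81 ± 1.43 TPM. TPM in wild-type wells 2 and 5 were lower for most members, in wells where 7SL RNA took 72.0% and 50.8% of all TPM.

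Across the 10 libraries without wild-type wells 2 and 5, the genes whose level ran most like that of Ckm were Gpd1, a glycerol phosphate dehydrogenase, Ugp2, which makes UDP-glucose, and Cox8b, the muscle form of a cytochrome oxidase subunit. Likeness was the root-mean-square difference of centred log2 CPM, 0.17, 0.23 and 0.23 for these genes, beside a median of 0.50 over 4287 genes of at least 50 CPM. Ckmt2 was the nearest other member, at 0.27 and position 23, while Mb came at position 1132 and Ckb at 3566. The genes most like Ckb were Serinc2, Tgfb3, a transforming growth factor, and Mymk, the fusion protein myomaker, with differences of 0.093, 0.095 and 0.10 beside a median of 0.34. Ak1 was the member nearest to Ckb, at 0.20 and position 134.

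Other cell types and states were read from marker lists beside these results. Across all genes tested over 12 libraries 28.1% were called, 14% as higher and 14.1% as lower. Without wild-type wells 2 and 5, 35.2% were called, 18.9% as higher and 16.3% as lower. All 8 markers of proliferating cells were called higher in ChR2 wells, with a summed level of 633 to 859.8 CPM against 89.1 to 482 CPM in the wild type. Of the fibroblast markers 2 of 5 tested were higher (Col3a1 and Fmod; summed over 7 genes, 2774 to 3401 against 736 to 3197 CPM). Of the smooth muscle markers 2 of 4 tested were higher (Acta2 and Smtn; summed over 5 genes, 1237 to 1495 against 588 to 1065 CPM), and of the cardiac markers 2 of 3 tested (Myh6 and Tnni3; summed over 6 genes, 52.1 to 109 against 8.56 to 61.1 CPM), or 1 of 3 without wild-type wells 2 and 5. Of the myotube markers, 3 of 11 were lower (Myog, Des and Ttn), or 4 without wild-type wells 2 and 5 (Myog, Myh8, Ttn and Mymk), and 0 higher. The part of these differences in the members' changes was not tested, and in bulk RNA fewer cells of a type and less message per cell cannot be told apart.

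Brain-type Ckb and erythrocyte-type Ampd3 have names that point to other tissues. Of 7 neuron or glia markers 0 passed the filter, their summed level was at most 0.441 CPM in any well, and Rbfox3 and Snap25 were at 0 in all wells. Of 6 erythroid markers 0 passed, with a summed level of at most 2.01 CPM, and Alas2 and Hbb-bs were at 0 in all wells.

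The neighbouring steps of the pathway were read from 8 lists with 61 genes, of which 49 passed the filter; 5 rose and 9 fell, which is 28.6% against 28.1% of all genes tested. Without wild-type wells 2 and 5, 6 of 50 rose and 10 fell, which is 32% against 35.2%. Creatine synthesis was not called for either of its 2 genes. Gatm, the amidinotransferase that starts it, stood at 245 ± 19.8 CPM in ChR2 wells and at 192 ± 72.2 CPM in wild-type ones, a log2 difference of 0.34 (adjusted p = 0.228, edgeR). Of the 4 other adenylate kinases tested, 1 rose: Ak4, a mitochondrial matrix enzyme, rose from 88.4 ± 18.4 CPM in the wild type to 136 ± 11.8 CPM, by 0.64 on the log2 scale (SE 0.14, adjusted p = 0.00349), with no overlap between the wells of the lines.

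Of 14 tested genes of the purine nucleotide cycle and of AMP breakdown or salvage, 2 rose and 3 fell. Without wild-type wells 2 and 5, 2 of 15 rose and 1 fell. The shares called over all genes tested were 28.1% and 35.2%. Adenosine kinase (Adk), which returns adenosine to AMP, rose from 20.6 ± 4.19 CPM in wild type to 33.1 ± 2.45 CPM in ChR2 (adjusted p = 0.00259, edgeR). Adss, the ubiquitous adenylosuccinate synthase, rose from 39.3 ± 8.77 to 59.4 ± 3.69 CPM (adjusted p = 0.00526), while its muscle counterpart Adssl1 stood at 101 ± 40.1 and 108 ± 16.6 CPM (adjusted p = 0.705). The falls were in Xdh, the xanthine dehydrogenase (log2 fold change -0.89), the nucleotidase gene Nt5c2 (-0.48) and Adsl, the adenylosuccinate lyase of the cycle (-0.45). Each of these 3 calls was lost on leaving out single wells, 7, 8 and 9 of the 12 in turn, and those of Xdh and Adsl also without wild-type wells 2 and 5.

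AMPK, the kinase that senses AMP, changed in 3 of its 7 subunits. The share called over all genes tested was 28.1%, or 35.2% without wild-type wells 2 and 5. The catalytic subunit Prkaa2, typical of muscle, fell from 79.0 ± 14.4 to 56.0 ± 8.89 CPM, which is -0.50 on the log2 scale (adjusted p = 0.0175, edgeR). The regulatory subunit Prkag3, typical of fast muscle, fell (-0.70, adjusted p = 0.0414) and Prkag2 rose (0.84, adjusted p = 0.031), calls that were lost on leaving out any 1 of 8 and of 6 wells. Without wild-type wells 2 and 5 all 3 were called in these directions, at -0.59, -0.83 and 0.74. The other catalytic subunit, Prkaa1, was then also called lower (-0.42, adjusted p = 0.0176; -0.38 and adjusted p = 0.0826 over 12 libraries; named after its values were seen), which makes 1 higher and 3 lower.

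Of the 5 adenine nucleotide carriers and porins that exchange ADP and ATP with mitochondrial creatine kinase, 0 were called. Slc25a4, the most abundant, stood at 554 ± 103 against 585 ± 197 CPM (adjusted p = 0.813, edgeR). Without wild-type wells 2 and 5, 1 of the 5 was called, the porin Vdac1 (log2 fold change 0.31, adjusted p = 0.0315, named after its values were seen). Of the 3 M-line proteins of the myomesin family, where Ckm docks, 0 were called over 12 libraries, with log2 differences from -0.52 (Myom3, adjusted p = 0.121) to 0.35 (Myom1, adjusted p = 0.373). For Myom2 the log2 difference was -0.32 with all wells (adjusted p = 0.153). Over the 10 libraries it was -0.37 (adjusted p = 0.0407), a fall that passed the test. The 6 other globins did not pass the filter, and the highest, Hba-a1, reached at most 1.76 CPM.

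Of 14 genes listed by function as regulators of Ckm or Ckmt2, 1 rose and 4 fell over 12 libraries. Across all genes tested 28.1% were called, 14% as higher and 14.1% as lower. Without wild-type wells 2 and 5, 1 of the 14 rose and 5 fell, where 35.2% of all genes were called, 18.9% as higher and 16.3% as lower. Myogenin (Myog) fell from 971 ± 233 CPM in wild-type wells to 542 ± 64.0 CPM in ChR2 wells (adjusted p = 0.00219, edgeR). Mef2d fell from 233 ± 36.9 to 155 ± 20.1 CPM (adjusted p = 0.00451), and the coactivator gene Ppargc1b from 26.7 ± 14.1 to 10.9 ± 2.14 CPM (adjusted p = 0.00486). The nuclear receptor gene Esrrg rose from 0.489 ± 0.632 to 2.22 ± 0.701 CPM (adjusted p = 0.0274, edgeR). That call depended on ChR2 wells 1, 5 and 6 and on wild-type well 3, each of which ended it when left out. Wild-type wells held only 0 to 1.32 CPM of Esrrg. In wild-type well 2 the floor of 3 counts stands at 3.93 CPM, above the ChR2 mean. Mef2a, named after its values were seen, was not called over 12 libraries (-0.22, adjusted p = 0.353) and fell without wild-type wells 2 and 5 (-0.42, adjusted p = 0.00484). Myod1 and Mef2c were called in neither set. The median log2 fold change of the list was -0.20, beside -0.020 over all genes tested.

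**Figure D5:**
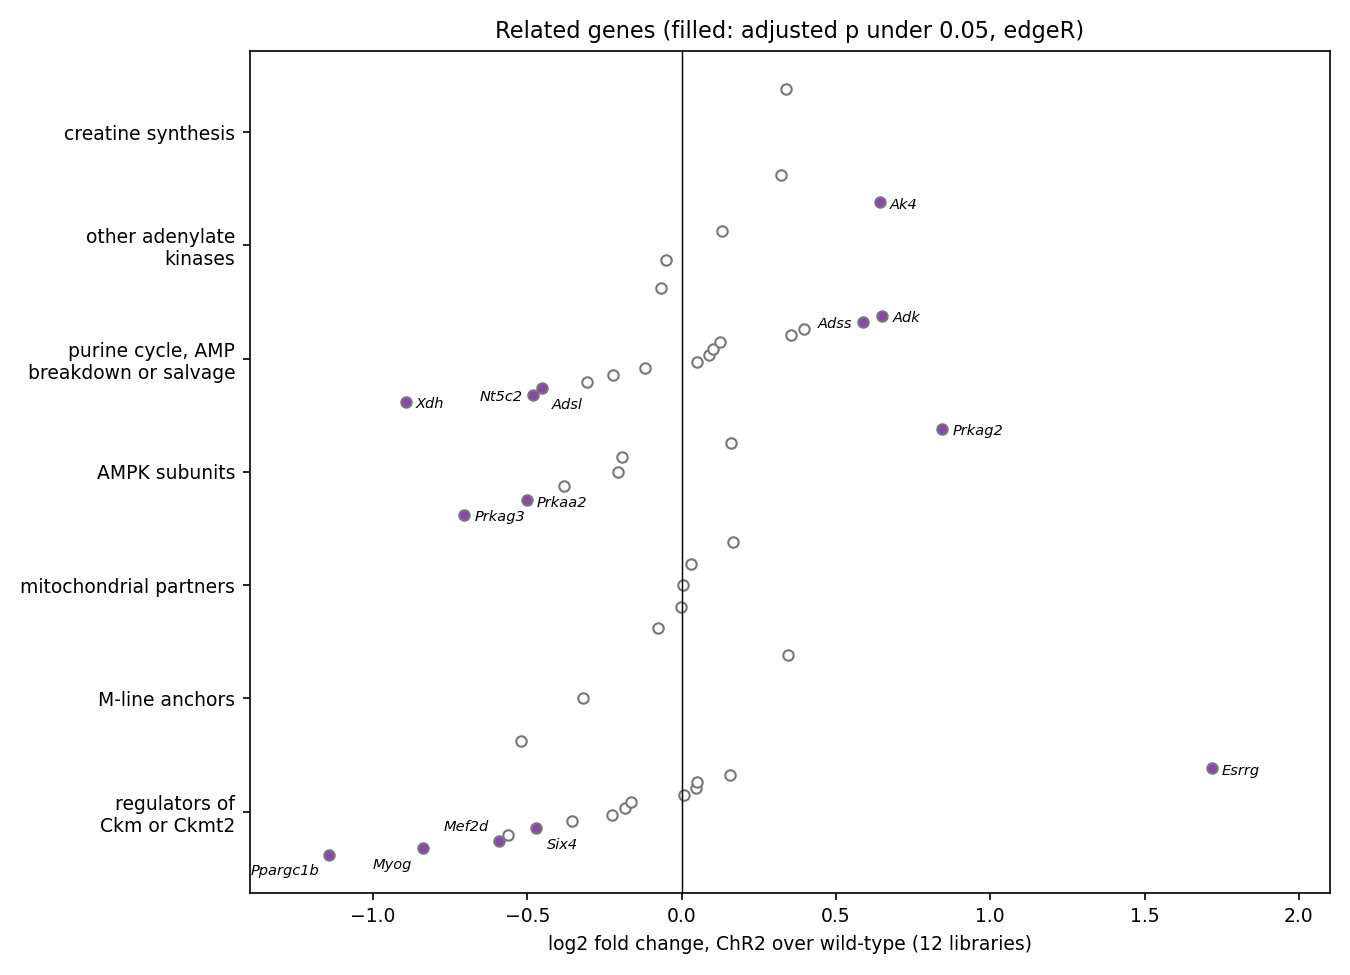
Log2 fold change, ChR2 over wild type over 12 libraries, of the 49 tested genes in 7 lists of related function; each point is a gene, spread vertically for legibility, and filled, named points had an adjusted p under 0.05 (edgeR). The filled points lie on both sides of 0, 5 to the right and 9 to the left, with Esrrg farthest right at 1.72 and Ppargc1b farthest left at -1.14.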

How the data were processed

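For 12 libraries the authors deposited estimated counts, not always whole, and TPM values of each gene. Salmon, STAR, bedtools 2.25.0 and BWA 0.7.12-r1039 are named in the submitters' processing notes, with builds GRCm39, mm10 and hg19, whose roles are not given in the sources used here. Per the labels' protocols, libraries were poly(A)-selected, had 14 cycles of PCR and gave paired reads of 50 bases. Groups and replicate numbers came from the sample titles.

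The estimated counts were rounded. Genes were kept by filterByExpr (minimum count 10), scaled by TMM and tested with the quasi-likelihood method of edgeR, using the robust option of its quasi-likelihood fit. Versions were edgeR 4.0.16, limma 3.58.1, DESeq2 1.42.0 and R 4.3.3, and p-values were adjusted over all genes. As a check of the code, the fit was run on counts simulated with the dispersions of these libraries. Wells were drawn as independent there, so the run does not bear on dependence between wells. Alternatives were other scalings, filters and tests, TPM with pseudocounts of 1 and 0.1 and a filter of 1 TPM in 6 libraries, a replicate block, and libraries left out. Named genes were all members, up to 3 called genes per direction and list (minimum 1 CPM), or where none was called the gene of highest level, and the 3 nearest genes to Ckm and to Ckb. Members and lists were chosen with earlier results of these data known.

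The lists' Adss1 and Adss2 were matched as Adssl1 and Adss through RefSeq synonyms. Of the 9 members, 7 had promoter windows. Same-line libraries differed by more than sampling noise (lowest chi-square per degree of freedom 5.09). Reads had no molecular identifiers, so floors cover counting error only. Figures were drawn with matplotlib 3.10.9.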

Additional observations from a re-analysis of the deposited data

How the results depend on the processing

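Slc6a8, Ckb and Ampd3 were called lower whichever single library was left out (log2 fold changes -0.46 to -0.37, -0.63 to -0.43 and -0.84 to -0.65). Ckm was called in none of the settings run, with log2 fold changes of 0.33 to 0.93. The table of TPM gave other calls. Over 12 libraries log2(TPM + 1) and log2(TPM + 0.1) moved the median of all genes to 0.35 and 0.43, with 592 and 254 genes higher and 28 and 17 lower, and with 0 members and 0 related genes called either way; in wild-type wells 2 and 5 the 7SL RNA took most of the TPM. There the signs turned for Ckmt2 (0.44 and 0.45), Slc6a8 (0.055 and 0.065), Mb (0.15 in both), Nt5c2 (0.0050 and 0.011), Slc25a4 (0.34 in both) and Myom2 (0.17 in both), none of them called. On log2(TPM + 1) without wild-type wells 2 and 5, an alternative chosen after seeing the data, 4 members were lower, Ckb, Slc6a8, Ampd3 and Mb (-0.40, adjusted p = 0.0125, limma), as were 15 related genes. Against a 1.5-fold change 0 members passed. The call of Ak1 was lost by edgeR with DESeq2 size factors (adjusted p = 0.0569), with upper-quartile factors (adjusted p = 0.0846) and without a filter (adjusted p = 0.0659). Limma voom called 2781 genes higher. Related genes called lower numbered 4 with upper-quartile factors, without a filter and with the replicate block, and with single libraries left out 4 to 9 were lower and 3 to 6 higher. The replicate numbers did not pair the wells (same-number correlations -0.14 to 0.10), and with a replicate block 1171 genes and 3 members were lower (Ak1 lost, adjusted p = 0.123), or 1195 genes and 2 members without wild-type wells 2 and 5 (Slc6a8 also lost, adjusted p = 0.0852), where 3 related genes were higher. Signs near 0 turned for Ckmt2 (0.021 with upper-quartile factors, 0.056 by voom, 0.0035 with the block, -0.15 to 0.11 with single libraries left out), for Slc25a4 (0.039 by voom, 0.066 without wild-type wells 2 and 5, 0.057 with the block there, -0.15 to 0.12 with single libraries left out) and for Ampd1 without those wells (-0.020, -0.051 on TPM, -0.082 with the block). As shares of CPM, Ckm made up 81.5% of creatine kinase message in ChR2 and 71.8% in wild type, and Ckmt2 9.82% and 12.5%. The causes were not tested. Among the members, depth limits Ampd1 and Ckmt1 most.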
